A study of Mus musculus with 16 samples.

Results

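The livers of H/A mice were compared directly with those of Del mice, which are 2 mutant genotypes of the ceramide synthase 2 gene. All samples labelled H/A and all labelled Del were used, so that 8 of the 16 liver samples of the series enter the comparison, 4 in each genotype. The 4 Flox and 4 WT samples supplied levels for reference and a share of the estimate of spread. All 16 mice were male and 6 weeks old, on a mixed background of 75% C57BL/6 and 25% SV129, and each mouse gave liver total RNA for 1 array.

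H/A stands for the line labelled CerS2 H/A, read here as an exchange of a catalytic-site histidine for alanine. Del stands for CerS2 Del, also labelled delHox. Flox stands for CerS2 Flox, also labelled delneo, and WT for wild type. The labels do not say what the delHox and delneo alleles contain, nor whether a deletion was restricted to 1 cell type. They name no treatment. The comparison asks whether a liver with the substituted enzyme differs from one with the Del allele.

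Ceramide synthase 2 acylates sphingoid bases with very long fatty acids and is the main enzyme of its family in hepatocytes. The ceramides it makes are built into sphingomyelins and glycosphingolipids of liver membranes. Small nucleolar RNAs, whose levels are described below, guide the chemical modification of ribosomal RNA. Box C/D members guide ribose methylation, box H/ACA members guide the conversion of uridine to pseudouridine, and most are cut out of the introns of host genes.

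Few genes separated the mutants. Of 31480 genes tested, 4 (0.0127%) passed an adjusted p of 0.05 between H/A and Del, 3 of them higher in H/A (0.00953%) and 1 lower (0.00318%). The genes that passed with a symbol were Ccdc24, a coiled-coil protein gene, and Snord82, a box C/D small nucleolar RNA gene, both higher in H/A, and Kif20b, a kinesin motor gene of late cell division, lower in H/A. The fourth was a transcript without a gene symbol, higher in H/A. With the slide in the label as a block, none passed by limma (0%), while 2569 genes (8.16%) had an unadjusted p below 0.05, against 2469 (7.84%) without the block. Against WT, which both comparisons share, 3166 genes (10.1%) were called in H/A and 4165 (13.2%) in Del, and the mean of both mutants differed from that of Flox and WT for 15871 genes (50.4%).

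The deposited values were log2 signals that had been quantile normalised, and every level and difference below is on that scale. The median difference over all genes was -0.01, and 98.2% of genes differed by less than 1. For 26611 genes (84.5%) the whole 95% interval of the difference lay between -1 and 1. Pairs of arrays within a mutant correlated at 0.964 to 0.984 (median 0.970), against 0.956 to 0.976 (median 0.971) for pairs across the mutants. The slides were unevenly shared, with H/A replicates 1 to 3 and Del replicate 1 on slide 1, and H/A replicate 4 and Del replicates 2 to 4 on slide 2. The scanner files listed for H/A replicate 4 and Del replicate 1 came from the other slide than the label, although their deposited values matched best the file of the labelled slide. By the listed files, every H/A array would lie on slide 1 and every Del array on slide 2. Slide and genotype could then not be told apart, and all values with the block or within a slide rest on the labels. Before scaling, the 75th percentile of spot signal was 134.6 ± 27.2 in H/A and 100.5 ± 11.4 in Del (SD, n = 4 each), with an exact two-sided permutation p of 0.0571, where 0.0286 was the smallest p possible. All 11 hepatocyte markers were well above background on all 8 mutant arrays, with mean log2 levels from 11.6 to 16.3.

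Printed here are the array probes of the genes that passed with a symbol. Those of 4 further small nucleolar RNA genes, whose values are given below, are added. Each is the deposited probe, written 5′ to 3′, with the letters CTGA in capitals in the box C/D probes and all others in lower case; CTGA is the core of the box D motif, and TGATGA that of box C.
Snord82: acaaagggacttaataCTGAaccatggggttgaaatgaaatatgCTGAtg
Snord69: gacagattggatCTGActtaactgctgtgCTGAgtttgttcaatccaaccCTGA
Snord49b: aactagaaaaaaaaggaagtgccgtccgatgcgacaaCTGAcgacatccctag
Snora24: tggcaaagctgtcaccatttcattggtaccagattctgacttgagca
Snora64: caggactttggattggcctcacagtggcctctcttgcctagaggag
Ccdc24: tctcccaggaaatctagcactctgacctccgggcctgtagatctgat
Kif20b: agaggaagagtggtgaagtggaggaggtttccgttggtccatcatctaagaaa

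These genes lie on chromosomes 1 (Snord82), 14 (Snord69), 11 (Snord49b), 3 (Snora24), 17 (Snora64), 4 (Ccdc24) and 19 (Kif20b) in the RefSeq annotation of GRCm38.p6. CTGA was found in 34 of 51 box C/D probes (66.7%), in 8 of 31 box H/ACA probes (25.8%) and in 24.7% of the probes of all 31480 genes. On the opposite strand, CTGA was in 13 of 51 box C/D probes (25.5%) and 22.5% of all probes. TGATGA was found in 9 of 51 box C/D probes (17.6%) and 1.84% of all probes, and on the opposite strand in 0 of 51 box C/D probes and 1.86% of all. Both motifs were more frequent in box C/D probes than in all probes, on the strand printed above. Whether a probe inside an intron read the small nucleolar RNA or its unspliced host transcript was not tested.

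Snord82 had log2 levels of 6.48, 6.48, 6.07 and 6.42 in the H/A arrays and 5.37, 5.12, 5.29 and 5.52 in the Del arrays. Every H/A array lay above every Del array, and both mutants lay below the Flox mean of 7.20 and the WT mean of 6.89. The difference was 1.04 (95% interval 0.72 to 1.36, adjusted p = 0.0413). With the slide as a block it was 0.95 (adjusted p = 0.189), and within the slides it was 0.97 on slide 1 and 1.11 on slide 2. Ncl, the nucleolin gene whose intron holds Snord82, differed by 0.09 (-0.14 to 0.31).

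Ccdc24 had levels of 3.66, 3.09, 4.02 and 3.56 in H/A and 1.36, 1.92, 2.25 and 1.73 in Del, with no overlap. The H/A levels lay near those of the controls, whose means were 3.60 in Flox and 3.69 in WT. The Del arrays were the low ones, and the signal was well above background on 2 H/A arrays and 0 Del arrays, so that no size is given for the difference. The measured means were 3.58 in H/A and 1.81 in Del (adjusted p = 0.0413, or 0.149 with the slide block). The transcript without a symbol was 5.43, 4.82, 4.95 and 5.16 in H/A, against 3.98, 2.58, 2.95 and 3.43 in Del. These Del arrays were again the low ones, none of them well above background, and H/A exceeded Del by at least 2.71-fold (adjusted p = 0.0413, or 0.189 with the block). Here and below, "at least" folds compare means and carry no interval.

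Kif20b was the 1 gene called lower in H/A than in Del. Its levels were 3.91, 3.98, 3.74 and 3.70 in H/A and 4.44, 5.03, 5.04 and 4.73 in Del. The H/A arrays lay near the Flox mean of 3.90 and above the WT mean of 3.42, the Del arrays lay above both, and H/A and Del did not overlap. The difference was -0.98 (-1.28 to -0.67, adjusted p = 0.0413), or -0.93 with the block (adjusted p = 0.191). The probe was well above background on 1 H/A and 3 Del arrays, and a second, dimmer Kif20b probe differed by -0.26.

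**Figure D1:**
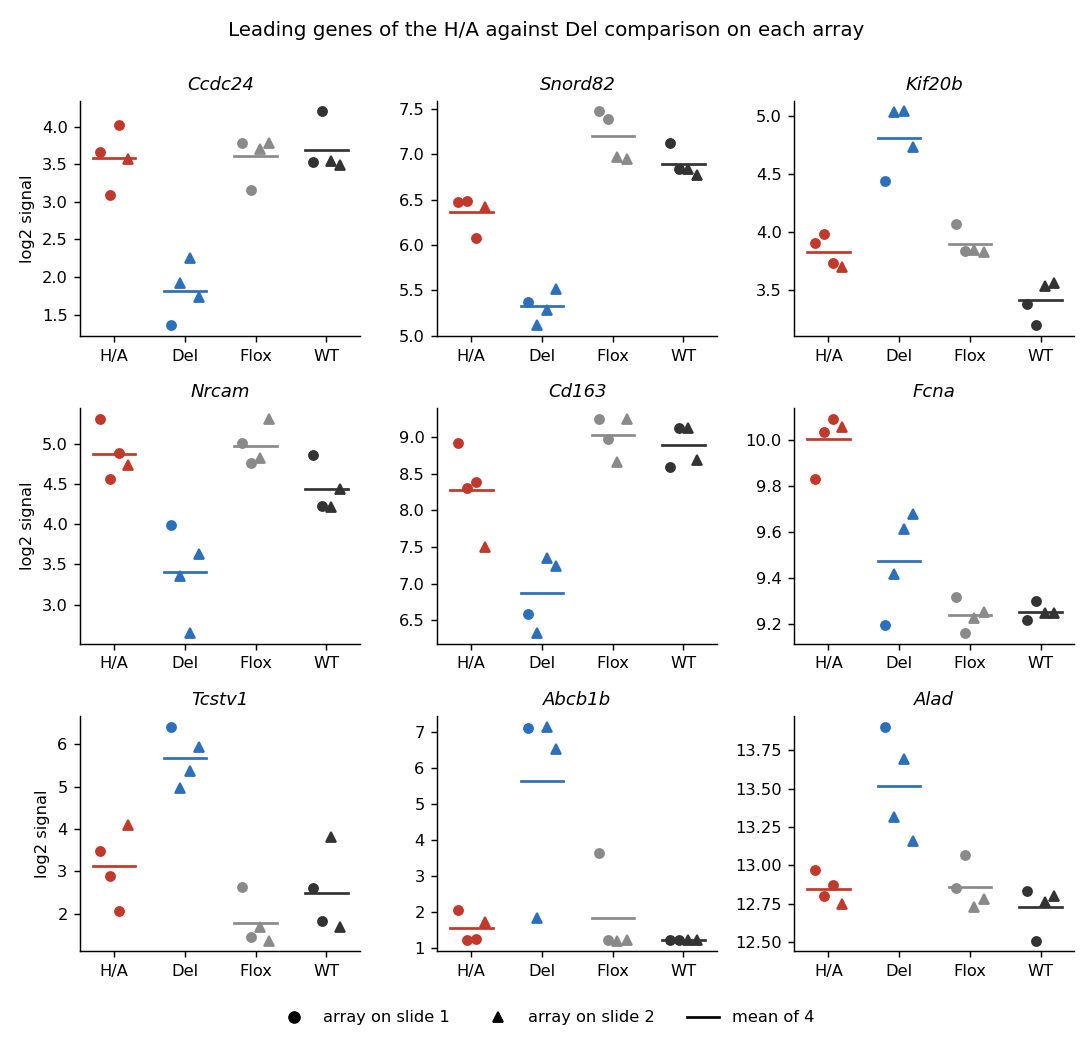
Log2 level (vertical axis) of leading genes by genotype (horizontal axis: H/A, Del, Flox, WT), 1 point per array, with the marker showing the slide and lines the group means. Ccdc24 and Snord82 sit higher in all 4 H/A arrays than in all 4 Del arrays, and Kif20b sits lower in H/A (3.70 to 3.98) than in Del (4.44 to 5.04).

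The 4 calls were sensitive to the choice of arrays. Leaving out 1 array at a time gave 0 to 7 called genes, 0 of them without H/A replicate 1 and 7 without H/A replicate 3. Ccdc24 was called in 8 of the 16 fits that each left out 1 array, Snord82 in 3, Kif20b in 2 and the unnamed transcript in 3. The direction of all 4 was the same in these fits and in the other settings that tested them, with smaller sizes under the normexp background correction. There Snord82 differed by 0.56, Kif20b by -0.24 and the unnamed transcript by 0.39, and Ccdc24 lost its call with the others (adjusted p = 0.646). With only genes above background on at least 8 arrays, Ccdc24 was not tested and Kif20b was read by its second probe. Without H/A replicate 4 and Del replicate 1, whose listed scanner files lie on the other slide, Kif20b (difference -1.06, adjusted p = 0.0337) and the unnamed transcript (adjusted p = 0.0277) were still called, while Snord82 (1.04, adjusted p = 0.22) and Ccdc24 (adjusted p = 0.139) were not.

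Beyond these, the genes with the smallest p were not called. Nrcam, a neuronal cell adhesion molecule gene, had levels of 5.31, 4.56, 4.88 and 4.74 in H/A and 3.99, 3.36, 2.65 and 3.63 in Del. Its groups did not overlap, the Del signal was not well above background on any array, and H/A was at least 2.33-fold higher (adjusted p = 0.134). Rag1, which recombines antigen receptor genes in lymphocytes (adjusted p = 0.235), Olfr448, an olfactory receptor gene (adjusted p = 0.33), Fzd3, a Wnt receptor gene (adjusted p = 0.33), and Abca15, a lipid transporter family gene (adjusted p = 0.37), had higher measured means in H/A. All 4 were well above background on 0 Del arrays and on 1 to 3 H/A arrays, and a bound could be set for Olfr448 alone, at least 1.17-fold higher in H/A. Wnt16, a Wnt ligand gene, was higher in H/A by at least 1.36-fold with its brighter probe (adjusted p = 0.232) and differed by -0.03 with the other.

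On the lower side, Abcb1b, which encodes a drug efflux pump, had a wide gap. Its levels were 2.07, 1.23, 1.25 and 1.72 in H/A and 7.12, 1.83, 7.16 and 6.52 in Del. H/A and Del replicate 2 lay at the level of the controls (Flox mean 1.83, WT mean 1.23), while the other 3 Del arrays stood far above. The H/A signal was not well above background on any array, and H/A was at least 4.61-fold lower (adjusted p = 0.339, or 0.329 with the block).

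Tcstv1, a gene known from early mouse embryos, was 3.48, 2.90, 2.06 and 4.10 in H/A, against 6.42, 4.97, 5.36 and 5.93 in Del. All Del arrays were above all H/A arrays, and the controls were lower still (Flox mean 1.78, WT mean 2.48). The difference was -2.54 (-3.60 to -1.48, adjusted p = 0.235). Alad, which encodes an enzyme of heme synthesis, was at 12.97, 12.80, 12.87 and 12.75 in H/A and 13.90, 13.32, 13.69 and 13.16 in Del. The H/A arrays lay at the control means (12.86 in Flox, 12.73 in WT), and Del differed from WT by 0.79 (adjusted p = 0.0034). H/A differed from Del by -0.67, or by -0.28 with a second, dimmer Alad probe.

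Other genes on the lower side with no overlap and no call included Tonsl, a replication fork repair gene (difference -0.55, adjusted p = 0.417), and Rbm15, an RNA-binding protein gene (-0.41, adjusted p = 0.432). Focad (-0.52) and Ccdc171 (-1.07) had the same adjusted p of 0.432. A second, dimmer Focad probe differed by -0.07. Pcdhga10, a protocadherin gene, differed by -0.76 (adjusted p = 0.389), and Dtwd2 by -0.63 (adjusted p = 0.417). Mir7035, a microRNA gene, was at least 1.73-fold lower in H/A (adjusted p = 0.432). Over all genes, 1158 (3.68%) had no overlap between the mutants, 489 (1.55%) with all H/A arrays above and 669 (2.13%) with all H/A arrays below.

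Many small nucleolar RNA genes stood higher in H/A than in Del, and none stood lower past the unadjusted test. Of 82 tested, 30 (36.6%) had an unadjusted p below 0.05 in the higher direction and 0 in the lower, against 4.21% and 3.64% of all genes, and 1 of them, Snord82, passed the adjusted test. With the slide block 35 of 82 were higher and 1 lower at that p, against 4.6% and 3.56% of all genes. Their median difference was 0.49, or 0.56 with the block. Within slide 1 the median was 0.24 and within slide 2 it was 0.96, and these rest on 1 Del and 1 H/A array. The box C/D genes gave 20 of 51 at that p with a median of 0.26, and the box H/ACA genes 10 of 31 with a median of 0.62.

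Both mutants lay below the controls. Relative to WT, 48 of the 82 fell in H/A (median -0.89), where 2.97% of all genes fell, and 0 of the 82 rose, where 7.08% of all genes did. Relative to the same WT arrays, 68 of the 82 fell in Del (median -1.43), where 4.38% of all genes fell, and 0 rose, where 8.85% of all genes did. The H/A mean lay between the Del mean and the controls for 61 of 82. That count largely restates the direction, since H/A lay above Del for 62 and both mutant means lay below the controls for 80.

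The H/A arrays were not alike in these RNAs. After each gene was centred on its mean over the 16 arrays, the median over the 82 genes was -0.89, 0.06, -0.68 and -0.04 in the H/A arrays and -0.87, -0.91, -0.94 and -0.87 in the Del arrays. It was 0.52 to 0.88 in Flox and 0.40 to 0.84 in WT. H/A replicates 2 and 4 thus stood between the Del arrays and the controls, and H/A replicates 1 and 3 near the Del arrays.

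Counted gene by gene, H/A replicate 2 lay above the highest Del array for 55 of 82 (67.1%, against 15.4% of all genes) and H/A replicate 4 for 54 (65.9%, against 18%). The figure was 37 (45.1%, against 16.8%) for H/A replicate 3 and 16 (19.5%, against 20.4%) for H/A replicate 1. Del replicate 1 lay above the highest of the other Del arrays for 34 (41.5%, against 22.6% of all genes). For the remaining Del arrays this share was 17.1% to 22%. Without H/A replicates 2 and 4, a choice made after their values were seen, 10 of the 82 were higher at an unadjusted p below 0.05 and the median was 0.035. By their labels these 2 arrays lay on different slides. Without H/A replicate 4 and Del replicate 1 the count was 24 and the median 0.34.

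**Figure D2:**
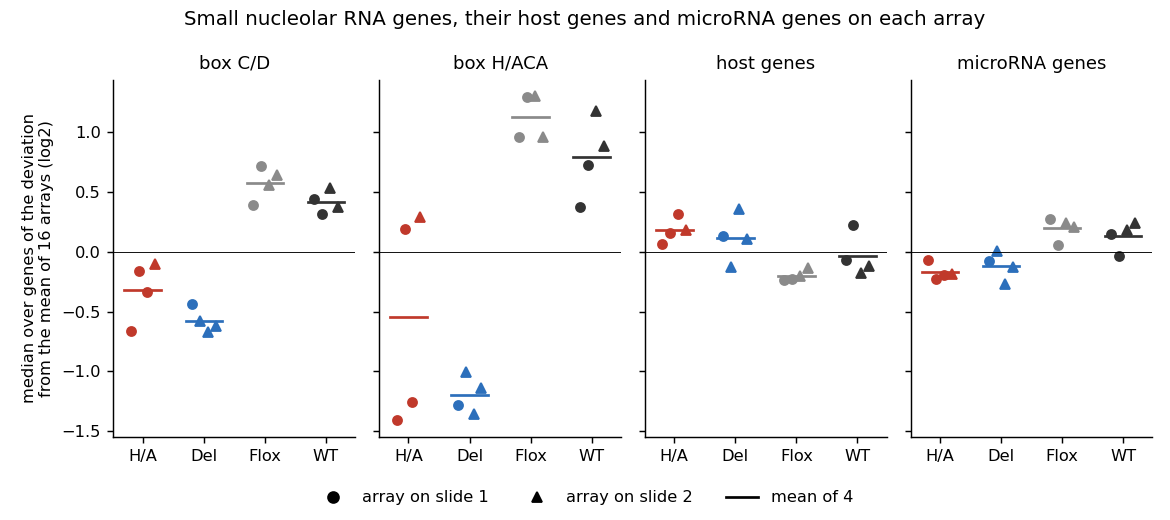
Median over the genes of a list (vertical axis, log2 level minus each gene's mean over the 16 arrays) for each array, grouped by genotype (horizontal axis: H/A, Del, Flox, WT), with panels for box C/D genes, box H/ACA genes, host genes and microRNA genes, and the marker showing the slide. In the small nucleolar RNA panels H/A replicates 2 and 4 sit above the rest of the mutants. The 4 Del arrays lie close together in the box H/ACA panel.

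Single genes, chosen after their values were seen, repeat this. Snord69 had levels of 4.62, 7.64, 4.95 and 7.47 in H/A and 4.27, 3.69, 3.61 and 4.03 in Del, with means of 8.43 in Flox and 8.30 in WT. H/A replicates 2 and 4 stood far above the other H/A arrays, and even those lay above every Del array. The difference was 2.27 (1.15 to 3.38, adjusted p = 0.37), while its host gene Gnl3, a nucleolar GTPase gene, differed by 0.08 (-0.35 to 0.51).

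Snora64, a box H/ACA gene, was 4.85, 7.11, 5.17 and 7.09 in H/A, against 4.10, 4.49, 3.92 and 4.82 in Del. Again replicates 2 and 4 were the high H/A arrays, and H/A and Del did not overlap. The difference was 1.72 (0.77 to 2.67, adjusted p = 0.432), and its host gene Rps2, a ribosomal protein gene, differed by -0.19 (-0.50 to 0.13).

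Snord49b had 6.25, 8.38, 6.39 and 8.24 in H/A and 6.00, 5.51, 5.76 and 5.92 in Del. The same split between H/A arrays was present, with no overlap with Del, and the difference was 1.52 (0.71 to 2.32, adjusted p = 0.411). Snord47 showed it too, at 5.80, 8.30, 5.77 and 8.30 in H/A against 4.92, 5.16, 5.43 and 5.58 in Del. Snora2b was 1.39, 5.56, 1.36 and 5.76 in H/A and 1.39, 1.60, 1.73 and 1.36 in Del, so that H/A replicates 2 and 4 stood alone, with 2 H/A and 0 Del arrays well above background. Snora30 overlapped between the groups and differed by 1.21 (-0.36 to 2.77).

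Snora24 was less split. Its levels were 7.67, 8.48, 7.38 and 8.24 in H/A and 7.10, 6.54, 6.73 and 6.77 in Del, with means of 9.28 in Flox and 9.16 in WT. All H/A arrays were above all Del arrays, and the difference was 1.16 (0.72 to 1.59, adjusted p = 0.165), or 1.13 with the block. Snord58b was 2.99, 5.10, 2.51 and 4.86 in H/A and 1.22, 2.13, 1.21 and 1.20 in Del, and no Del array was well above background. It was higher in H/A by at least 1.16-fold (adjusted p = 0.227).

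Of 53 host genes, 1 had an unadjusted p below 0.05 in the higher direction (1.89%, against 4.21% of all genes), with a median of 0.02. Of 15 other small nuclear and cytoplasmic RNA genes, 3 (20%) were higher at that p, with a median of 0.21. For 58 small nucleolar RNA genes well above background on all 16 arrays, 17 (29.3%) were higher at that p and the median was 0.25. Array brightness averaged higher in H/A (134.6 against 100.5 in Del), and its part in the result was not tested. Among 278 microRNA genes, 17 were higher and 21 lower at that p (6.12% and 7.55%, against 4.21% and 3.64% of all genes). Their median was -0.02.

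None of the 4 ceramide synthase genes tested passed between the mutants. Cers2 and Cers3 were not analysed here. Cers5, which prefers palmitoyl chains, had levels of 5.30, 5.33, 6.08 and 5.47 in H/A and 5.34, 5.11, 5.89 and 5.26 in Del. The groups overlapped, with a difference of 0.15 (-0.35 to 0.64), and Cers5 rose over the WT mean of 4.63 by 0.92 in H/A and 0.77 in Del, with adjusted p-values of 0.022 in H/A and 0.04 in Del. Cers6, with the same chain preference, differed by 0.15 (-0.39 to 0.69), Cers4 by 0.02 (-0.34 to 0.38) and Cers1 by 0.01 (-0.26 to 0.28).

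Of 30 genes of sphingolipid metabolism, 1 was higher and 2 were lower at an unadjusted p below 0.05 (3.33% and 6.67%). Of all genes 4.21% were higher and 3.64% lower, and the list median was 0.06. St3gal5, which makes the ganglioside GM3, had levels of 10.62, 10.91, 10.90 and 10.48 in H/A and 9.71, 10.01, 10.17 and 9.71 in Del. All H/A arrays were above all Del arrays, and the difference was 0.83 (0.25 to 1.41, adjusted p = 0.52). A second, dimmer St3gal5 probe differed by 0.34. Galc, a lysosomal galactosylceramidase gene, differed by -0.47 and Ormdl2, an inhibitor of sphingolipid synthesis, by -0.29.

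Genes that moved in both mutants together were used to place the comparison, since the mean of both mutants against the controls uses a contrast independent of the difference between them. Of 1294 genes whose mutant mean was higher by 1 or more and passed the adjusted test, Del lay further from the controls than H/A for 822 (63.5%), and the median of H/A minus Del was -0.10. Of the 1294 genes, 6.34% had an unadjusted p below 0.05 between the mutants, against 7.84% of all genes. For 418 genes lower by 1 or more, Del lay further for 324 (77.5%), with a median of 0.49. Here 31.8% had an unadjusted p below 0.05 between the mutants. Over all 31480 genes, H/A lay below Del for 16188 and above it for 15291. In both directions Del was more often the genotype further from the controls, while the share past that p was raised for the lower genes alone. This ranking was not repeated by slide, with arrays left out or without scaling. Without scaling, the median of H/A minus Del over all genes was 0.40.

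None of the named genes with the largest shared changes passed the test between the mutants (0.0127% of all genes did). Atf3, a stress transcription factor gene at a mean of 2.11 in Flox and 2.40 in WT, had levels of 7.05, 7.68, 6.46 and 7.72 in H/A and 7.28, 7.30, 7.80 and 7.88 in Del. The groups overlapped and differed by -0.34 (-1.30 to 0.62). Osbpl3, an oxysterol-binding protein gene, differed by 0.28 (-0.43 to 0.99), Slpi, a secreted protease inhibitor gene, by 0.01 (-1.25 to 1.26) and Ubd, a ubiquitin-like protein gene, by -0.19 (-1.54 to 1.17).

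Ly6d, a membrane protein gene, differed by -0.64 (-1.39 to 0.11), Gsta1, a glutathione transferase gene, by -0.53 (-1.82 to 0.77), Racgap1, a cytokinesis gene, by -0.60 (-2 to 0.80) and Gipc2 by -1.13 (-2.77 to 0.51). Of genes low in both mutants, Hsd3b5, a male-biased steroid dehydrogenase gene, had 6.26, 4.52, 5.43 and 5.78 in H/A and 4.46, 5.28, 5.05 and 5.79 in Del, against means of 10.22 in Flox and 12.14 in WT. The groups overlapped and differed by 0.35 (-1.64 to 2.34). Serpina4-ps1 differed by -1.20 (-3.88 to 1.49), Elovl3, a fatty acid elongase gene, by -0.61 (-3.38 to 2.15) and Slco1a1, a bile acid and organic anion transporter gene, by -0.82 (-3.07 to 1.43). These intervals are wide enough to hold differences above 1 for all 4. Slco1a1 differed by 0.58, Elovl3 by 0.37 and Serpina4-ps1 by -0.44 once H/A replicate 3 was left out.

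**Figure D3:**
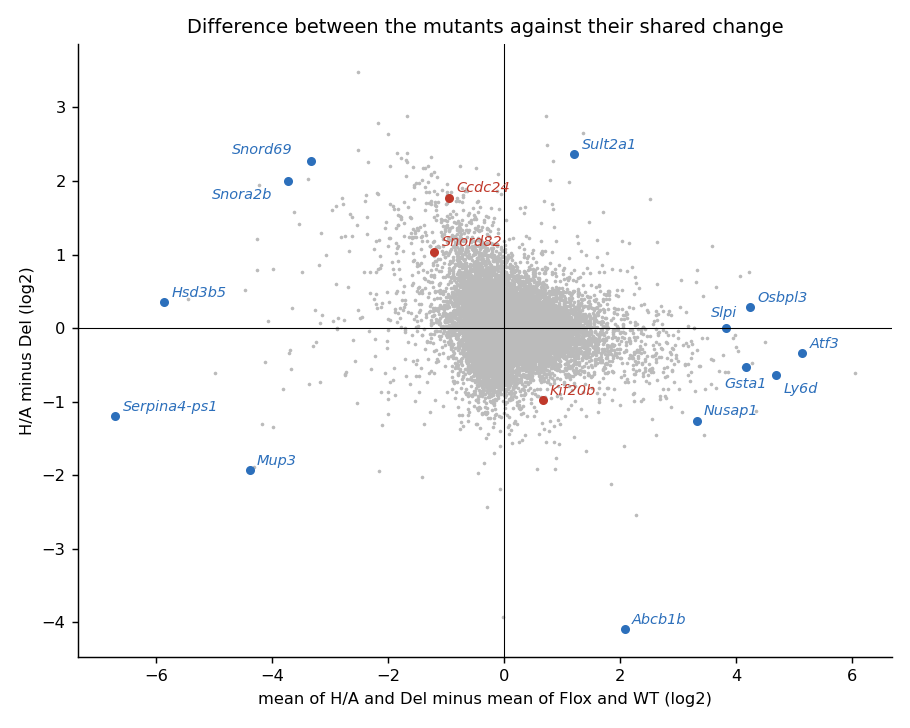
Each point is 1 of 31480 genes, placed by the mean of H/A and Del minus the mean of Flox and WT (horizontal axis, log2) and by H/A minus Del (vertical axis, log2). Named genes with a symbol that passed the test between the mutants are red and other named genes blue. Atf3 and Hsd3b5 lie far from the controls and near 0 between the mutants, while Abcb1b stands apart at the bottom. Abcb1b and Ccdc24 are placed by fitted values although H/A (Abcb1b) or Del (Ccdc24) was not well above background.

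Most mitosis genes lay lower in H/A than in Del, with few past the unadjusted test. Relative to WT, 29 of 43 mitosis genes rose in H/A (median 1.72, against 7.08% of all genes) and 33 rose in Del (median 2.35, against 8.85%). Of 43 mitosis genes, 0 were higher and 4 lower at an unadjusted p below 0.05 (9.3%, against 3.64% of all genes), 1 of them Kif20b, and 40 lay below 0. The median was -0.32, or -0.52 with the slide block, and it became 0.09 without scaling between arrays, where the median of all genes was 0.40. Within slide 1 the median was -0.77 and within slide 2 it was 0.18, so the slides differed in sign. Leaving out 1 array gave 2 (without H/A replicate 1) to 10 (without H/A replicate 4) lower members and medians of -0.50 (without H/A replicate 4) to -0.19 (without H/A replicate 3). Centred per gene, the array medians were 0.47, 0.79, 0.32 and 1.25 in H/A and 1.38, 1.09, 1.30 and 0.80 in Del, and they overlapped.

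Nusap1, a spindle protein gene, was 3.53, 4.67, 3.80 and 5.69 in H/A and 6.13, 5.53, 5.76 and 5.32 in Del. H/A replicate 4 reached the Del range, the other H/A arrays did not, and the difference was -1.26 (-2.23 to -0.29, adjusted p = 0.534). Birc5, an inhibitor of apoptosis that acts in chromosome segregation, differed by -0.43 (adjusted p = 0.574). Of 37 DNA replication genes, 3 were lower at that p (8.11%, against 3.64% of all genes), or 8 with the block, where 3.56% of all genes were. The median was -0.14, which became 0.27 without scaling and -0.07 without H/A replicate 1. Pold1, the catalytic subunit of DNA polymerase delta, differed by -0.51, Mcm2, a subunit of the replicative helicase, by -0.64 and Rpa2, a single-strand binding protein gene, by -0.31.

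Among stress genes, Jun, a subunit of the transcription factor AP-1, had levels of 10.87, 10.54, 10.23 and 10.34 in H/A and 11.27, 11.10, 11.01 and 11.08 in Del, where the WT mean was 8.56. All H/A arrays lay below all Del arrays, and the difference was -0.62 (-0.94 to -0.29, adjusted p = 0.4), or -0.70 with the block. Jund, another AP-1 subunit, differed by -0.36 without overlap, and Klf6, an early response transcription factor gene, by -0.53. These 3 were the members of 17 AP-1 and stress response genes at an unadjusted p below 0.05 (17.6%, against 3.64% of all genes). The count was 1 without Del replicate 4. The list median was -0.09, with 5 members above 0, -0.03 without Del replicate 3, -0.21 without Del replicate 2 and 0.31 without scaling.

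Atf4, the transcription factor of the integrated stress response, had 11.76, 11.80, 11.90 and 11.90 in H/A and 12.33, 12.23, 12.31 and 12.25 in Del. No array overlapped, and the H/A arrays were the ones near the control means of 11.96 in Flox and 11.98 in WT. The difference was -0.44 (-0.73 to -0.16, adjusted p = 0.506). It was the 1 member at an unadjusted p below 0.05 among 29 genes of the unfolded protein and integrated stress response (3.45%, against 3.64% of all genes), of which 19 lay above 0 with a median of 0.05.

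Of 24 NRF2 targets, 0 were higher and 3 lower at that p (12.5%, against 3.64% of all genes), with a median of -0.28 that became 0.17 without scaling. The count was 0 without Del replicate 1 and 5 without Del replicate 2, and the median was -0.02 without H/A replicate 1. Srxn1, which repairs oxidised peroxiredoxins, differed by -0.96 (-1.77 to -0.15), Gsr, glutathione reductase, by -0.49 and Tkt, transketolase, by -0.36. Among 21 p53 targets 1 was lower (4.76%), Mdm2, the ubiquitin ligase of p53 (-0.51), and the list median was -0.25, or 0.18 without scaling. Anxa2, an annexin gene of fetal liver and liver tumours, differed by -0.83 as the 1 of 19 such genes at that p (5.26%). Both shares are near the 3.64% of all genes. Of 31 interferon-induced genes, 2 were lower, Rsad2 (-0.88) and Oasl1 (-0.32), and 1 higher, Irf1, an interferon-regulated transcription factor gene (0.50), against 3.64% lower and 4.21% higher of all genes.

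Most respiratory chain genes lay higher in H/A. Of 30 respiratory chain genes, 7 were higher at an unadjusted p below 0.05 and 0 lower (23.3%, against 4.21% of all genes), 26 lay above 0, and the median was 0.16, or 0.19 with the block. The count was 4 without Del replicate 1 and 10 without Del replicate 3. Sdha, a subunit of succinate dehydrogenase, had levels of 10.69, 10.73, 10.98 and 11.04 in H/A and 9.63, 9.50, 10.57 and 10.52 in Del. H/A lay above Del without overlap, 2 of the Del arrays were near the WT mean of 10.45, and the difference was 0.81 (0.31 to 1.30, adjusted p = 0.475). Ndufv1, of complex I, differed by 0.40 and Atp5b, of ATP synthase, by 0.35.

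Among 25 PPAR alpha targets and other genes of fatty acid oxidation, 5 were higher and 0 lower at that p (20%, against 4.21% of all genes), 21 lay above 0, and the median was 0.15. With the block 3 were higher and the median was 0.17. Leaving out 1 array gave 2 (without H/A replicate 1) to 9 (without Del replicate 3) higher members and medians of 0.08 (without Del replicate 1) to 0.25 (without H/A replicate 4). The median was 0.46 within slide 1 and -0.12 within slide 2. Cyp4a10, a fatty acid hydroxylase gene, was 13.26, 13.12, 13.12 and 12.45 in H/A and 11.67, 11.99, 12.25 and 12.37 in Del. The H/A arrays were all the higher ones, H/A replicate 4 by a small margin, and the difference was 0.92 (0.35 to 1.48, adjusted p = 0.475). Cyp4a31 differed by 0.73 (1.02 and 0.05 with its dimmer probes), and Hadha, of mitochondrial beta oxidation, by 0.34.

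Elovl6, which elongates palmitate, had 9.48, 9.72, 9.35 and 9.33 in H/A and 8.81, 8.56, 8.76 and 8.97 in Del, and Elovl4, which makes very long chains, differed by -0.25 (-0.64 to 0.14). Elovl6 did not overlap, with a difference of 0.70 (0.29 to 1.1, adjusted p = 0.442). It was the 1 of 13 elongation genes at an unadjusted p below 0.05 (7.69%), while 8 of the 13 lay below 0. The list median was -0.09, and 4.21% of all genes were higher at that p. Of 22 fatty acid and triglyceride synthesis genes, 2 were higher (9.09%), Dgat2, a triglyceride synthesis gene (0.48), and Thrsp, a lipogenic regulator gene (1.19). Of 22 cholesterol synthesis genes, 2 were higher (9.09%), Fdps (0.52) and Tm7sf2 (0.45). There 18 lay above 0, with a median of 0.23, or 0.10 without H/A replicate 3.

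Among 28 genes of lipid uptake and lipid droplets, 3 were higher at that p (10.7%, against 4.21% of all genes), with a median of 0.02. With the block 2 were higher and 1 lower. Pnpla2, adipose triglyceride lipase, differed by 0.61 and Fabp5, a fatty acid binding protein gene, by 1.11. Bile acid genes gave 3 higher and 1 lower of 23 (13% and 4.35%, against 4.21% and 3.64% of all genes). Their median was -0.01, or 0.20 with the block. Klb, a co-receptor of fibroblast growth factors, differed by 0.80, Akr1d1, of bile acid synthesis, by 0.66 and Fgfr4, the receptor that acts with Klb, by -0.42. Of 31 drug metabolism genes 4 were higher and 1 lower (12.9% and 3.23%), among them Por, the reductase that serves cytochromes P450 (1.00). With the block 2 drug metabolism genes were higher and 0 lower.

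Rhbg, an ammonium transporter gene of pericentral hepatocytes, was 7.01, 7.59, 8.05 and 7.32 in H/A, against 6.24, 6.25, 6.82 and 6.60 in Del. All H/A arrays were higher, and the difference was 1.02 (0.48 to 1.55, adjusted p = 0.405). Relative to the WT mean of 6.56, Rhbg rose by 0.93 in H/A (adjusted p = 0.03) and differed by -0.08 in Del (adjusted p = 0.82). It was the 1 of 17 pericentral genes at an unadjusted p below 0.05 between the mutants (5.88%, against 4.21% of all genes). Of 22 periportal genes 1 was higher at that p, Tdo2, of tryptophan breakdown (0.56), and 1 was lower. These shares, 4.55% each, are near the 4.21% higher and 3.64% lower of all genes.

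**Figure D4:**
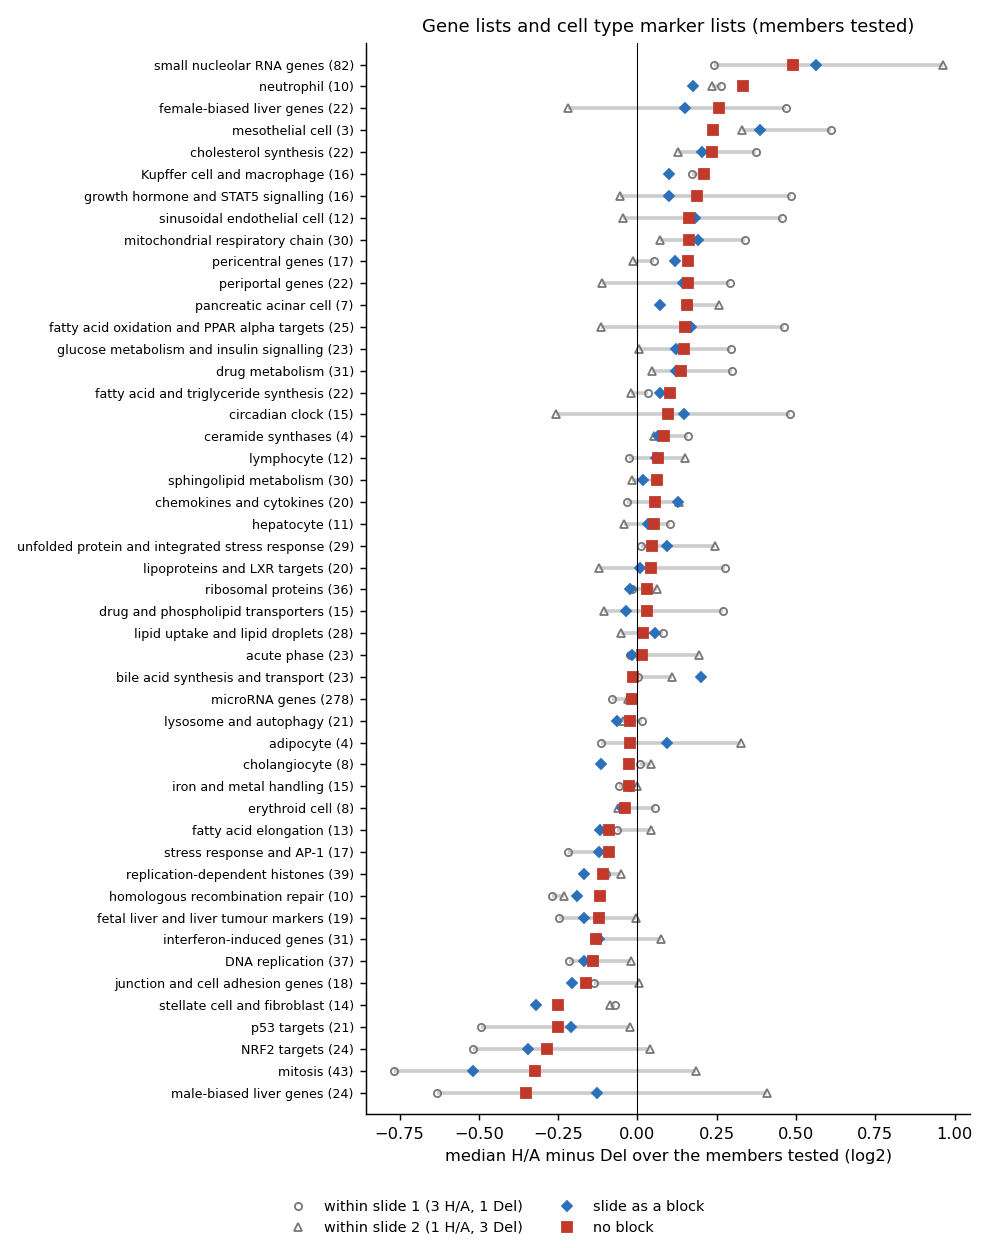
Median of H/A minus Del (horizontal axis, log2) over the tested members of each gene list or cell type marker list (vertical axis, number tested in brackets), without a block, with the slide as a block and within each slide. Among the lists drawn, small nucleolar RNA genes have the highest median, 0.49, and male-biased liver genes the lowest, -0.35. For several lists the slides lie on opposite sides of 0.

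Sex-biased liver genes varied between arrays within a genotype. Sult2a1, a hydroxysteroid sulfotransferase gene higher in females, had levels of 8.07, 7.20, 8.54 and 4.56 in H/A and 4.27, 5.52, 4.36 and 4.76 in Del. The 3 H/A arrays of slide 1 were high and the 1 H/A array of slide 2 lay among the Del arrays. The difference was 2.36 (0.74 to 3.98, adjusted p = 0.52), 3.66 within slide 1 and -0.32 within slide 2, and Sult2a2 was higher in H/A by at least 1.95-fold with the same arrays high.

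Of 22 female-biased genes, 3 were higher and 1 lower at an unadjusted p below 0.05 (13.6% and 4.55%), with a median of 0.26. The female-biased median was 0.15 with the block, 0.47 within slide 1 and -0.22 within slide 2, so the slides differed in sign. Of all genes 4.21% were higher and 3.64% lower. Of 24 male-biased genes, 0 were higher and 1 lower (4.17%), Mup3, a major urinary protein gene (-1.93). With the block, 0 male-biased genes were past that p in either direction. The male-biased median was -0.35, -0.13 with the block, -0.63 within slide 1, 0.41 within slide 2 and 0.09 without scaling. Without H/A replicate 3, whose Mup3 level was 5.06 against 9.02 to 11.07 in the other H/A arrays, it was 0.03.

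Macrophage genes differed in both directions. Cd163, a scavenger receptor gene for haemoglobin, had levels of 8.92, 8.30, 8.39 and 7.50 in H/A and 6.58, 6.33, 7.35 and 7.24 in Del. The Del arrays were all lower, also than the means of 9.03 in Flox and 8.89 in WT, and the difference was 1.40 (0.80 to 2.00, adjusted p = 0.266). A second, dimmer Cd163 probe differed by 0.47. Fcna, a lectin gene of macrophages, was 9.83, 10.04, 10.09 and 10.06 in H/A against 9.19, 9.42, 9.61 and 9.68 in Del, with no overlap (0.53, adjusted p = 0.33), and rose over WT by 0.75 in H/A (adjusted p = 0.0011).

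Of 16 Kupffer cell and macrophage markers, 2 were higher, Vsig4 (0.49) and Clec4f (0.46), at an unadjusted p below 0.05 (12.5%). Another 1 was lower, Mmp12 (-1.24, 6.25% of the list), and of all genes 4.21% were higher and 3.64% lower. The list median was 0.21, or 0.09 without Del replicate 3. With the slide block 0 were higher and 1 lower, and the median was 0.10. All 16 were well above background on all 8 mutant arrays. Their summed linear signal was 10902 to 20455 in H/A, 11276 to 12454 in Del, 6214 to 9220 in Flox and 5794 to 9151 in WT. In whole liver, fewer cells of a type and less RNA per cell cannot be told apart.

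Of 10 neutrophil markers, 3 were higher at that p and 0 lower (30%, against 4.21% of all genes), Retnlg (0.84), Ltf (0.46) and Mpo (at least 1.26-fold), and the median was 0.33. With the block 2 were higher and the median was 0.17. The count was 1 and the median 0.12 without H/A replicate 3, and centred per gene the median was 0.81 in that array, against 0.03 to 0.23 in the other H/A arrays and -0.42 to 0.11 in Del. Their summed signal was 4897 to 6192 in H/A and 4578 to 6514 in Del, and Mpo, Retnlg and Camp were not well above background on every mutant array. Among 20 chemokine and cytokine genes, 3 were higher (15%), Il1b (at least 1.19-fold), Ccl24 (0.80) and Cxcl1 (1.06), and 1 lower (5%). Of all genes 4.21% were higher and 3.64% lower. Il1b was well above background on 3 H/A and 0 Del arrays. Of 12 lymphocyte, 8 cholangiocyte and 14 stellate cell and fibroblast markers, 0 were past that p in either direction, and the medians were 0.06, -0.03 and -0.25, the last of these 0.17 without scaling.

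**Figure D5:**
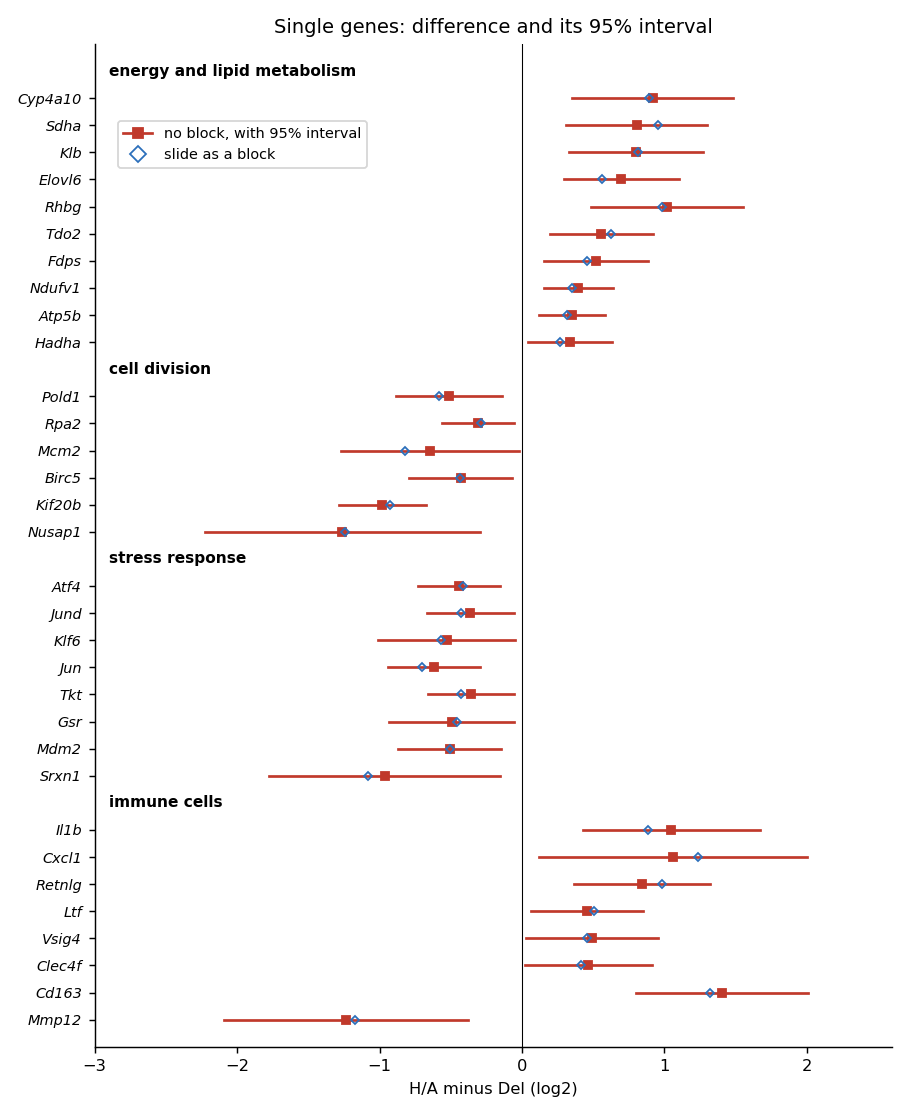
H/A minus Del (horizontal axis, log2) for single genes (vertical axis) grouped by role, as the estimate without a block with its 95% interval and the estimate with the slide as a block. The block moves most estimates little, as for Jun (-0.62 without and -0.70 with the block). Il1b was not well above background in Del, so that its point is a fitted value and not a measured size.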

How the data were processed

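Liver RNA of 16 mice was hybridised in 1 colour (Cy3) to 60037 distinct probes, with first strands primed by oligo-dT and random primers together, per the labels' protocols. Per the submitters' processing notes, Agilent Feature Extraction 11 and Partek were used. Scanner files hold spot intensity values per the file headers. The values deposited in the series table are log2 signals and differed by at most 0.0063 from a quantile normalisation recomputed from those files. Its columns, taken by sample, were used for all results; 6 of 16 samples list a scanner file of another slide than their label, and each column matched best the file of the labelled slide.

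Probes well above background on at least 4 arrays were kept, 1 (the brightest) per gene. One limma 3.58.1 fit (R 4.3.3) over 16 arrays gave H/A minus Del, with Benjamini-Hochberg adjustment over 31480 genes; calls are at 0.05 and unadjusted p-values come from the same fit. Intervals are 95%, unadjusted. Genes dim in 1 group have "at least" folds, the mean of the other group against the dimmest signal well above background on each array. Where the dim gene's own value was higher, that value was used. The folds take no account of sampling error, and the dimmest such signal of any probe is not a detection limit for the gene. Named genes are the 12 of smallest p per direction, the ceramide synthases, 3 of smallest p per list and the largest shared changes, plus small nucleolar RNA and host genes chosen after their values were seen. Members and lists were chosen with earlier results of these data known. The 37 gene lists and 11 marker lists were described by counts and medians, with no test of a list. The number of arrays limits the precision. Scripts were tested on simulated data. Alternatives covered slide, scaling, background, filters, probes, weights and left-out arrays.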

Additional observations from a re-analysis of the deposited data

Results flagged for a closer look

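The 100 named genes and array brightness were checked in both mutants for a single array far from the other 3, which chance gives in about 1 of 20 groups; 11 of 204 groups were so marked. Among small nucleolar RNA genes, H/A replicate 3 was low for Snord82 (6.07, others 6.42 to 6.48) and Del replicate 2 was high for Snord58b (2.13, others 1.20 to 1.22). Without H/A replicate 3 and without Del replicate 2, H/A minus Del called 7 and 2 genes.

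Del replicate 2 was low for Abcb1b, at 1.83 where the other Del arrays were at 6.52 to 7.16. Del replicate 1 was low for Tdo2 (10.3, others 10.8 to 10.9), Vsig4 (8.61, others 9.27 to 9.36) and Irf1 (7.81, others 8.73 to 8.91). Del replicate 4 was high for Ndufv1 (11.1, others 10.9). H/A replicate 1 was high for Galc (4.45, others 3.73 to 3.77) and Rps2 (9.76, others 9.51 to 9.53). H/A replicate 3 was high for Ltf (5.73, others 5.12 to 5.20) and Oasl1 (5.08, others 4.73 to 4.79).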

How the results depend on the processing

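The count of genes called between H/A and Del, 4, was 0 with the slide as a fixed block, with the H/A and Del arrays alone, with these and the block, with 75th percentile scaling, with normexp, with the filter at 8 arrays, and without H/A replicates 2 and 4 (added after the data were seen). It was 1 with no filter, 2 with trend and robust settings, 9 with array weights, 34 with no scaling, 75 within slide 1 (34.7% higher) and 262 within slide 2 (82.4% higher). It was 4 with the slide as a random block and with the mean of probes, and 5 without H/A replicate 4 and Del replicate 1. Each within-slide fit rests on 1 array of a mutant, assumed to vary like the rest. Leaving out 1 array gave 0 to 7. With no scaling, 9542 genes differed between H/A and WT, 2241 between Del and WT and 10099 between mutants and controls. Without H/A replicates 2 and 4, 915 differed between H/A and WT. Leaving out 1 array gave 1450 to 8021, 2190 to 7173 and 12975 to 17457, the highest each time without WT replicate 2 and the lowest without WT replicate 4 for H/A and without Del replicate 3 for the other two. The small nucleolar RNA count of 30 was 2 within slide 1, 59 with no scaling, 10 without H/A replicates 2 and 4, and 20 to 42 on leaving out 1 array. Their median of 0.49 was 0.96 within slide 2, 0.85 with no scaling, 0.18 with normexp, 0.035 without H/A replicates 2 and 4, and 0.33 to 0.66 on leaving out 1 array. Without H/A replicate 2 the count was 20, and without H/A replicate 4 the median was 0.33. The cause of these shifts was not tested. No paired analysis was possible because the labels give no replicate numbers shared between genotypes. Genes near background, Ccdc24 among them, are limited by signal.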
